A study of Brassica oleracea with 12 samples.

Results

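The gene described here is *GLK1* of kale, *Bo7g003410*, followed across 12 leaf libraries as 1 row of the 45325 rows of a gene expression table. The row was chosen because it holds the reference transcript of *Bo7g003410*, and it combines that transcript with 3 assembled transcripts. RNA came from the variegated double-haploid kale line ‘JC007-2B’, in which leaves turn color under chilling, in 4 groups of 3 libraries. S1 was the green leaf stage and S2 the albino stage, at which white appeared in the leaf center while the margin stayed green, and both were taken as leaves freed of veins. At the variegated leaf stage the sectors were taken apart, as S3_S for the green margin and S3_C for the white center. All 4 groups carried the same genotype, so no library came from a kale without the variegation trait, and stage, cold exposure and the piece of leaf taken changed together between S1, S2 and the S3 sectors. The S3 replicates are described as independent biological replicates, while for S1 and S2 the origin of the replicates is not stated, so that p-values there measure the spread between libraries.

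GOLDEN2-LIKE (GLK) proteins are transcription factors of the GARP family. In *Arabidopsis* and maize they are known to activate nuclear genes for chloroplast development, above all those for the light-harvesting antenna and for chlorophyll synthesis, and plants without them are pale. In *Arabidopsis* *GLK1* has a partly redundant partner, *GLK2*. The name *GLK1* for *Bo7g003410* is the one the study gives. The table has no description of the row, and annotates it to the nucleus, to DNA binding and to the regulation of transcription. No other row was named as a GLK or projected from an *Arabidopsis* GLK, so the partner was not analysed here.

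*GLK1* was highest in the green margin. In S3_S the 3 libraries had 36.1, 45.5 and 33.1 FPKM (fragments mapped, relative to transcript length and library total), a mean of 38.2 ± 6.46 (SD, n = 3). In S3_C they had 6.46, 6.36 and 6.95 FPKM, a mean of 6.59 ± 0.315 (SD, n = 3). Every margin library lay above every center library, and the center libraries lay close together.

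The earlier stages were lower than the margin. In S1 the libraries had 7.76, 15.7 and 12.4 FPKM (mean 12.0 ± 4.01, SD, n = 3). In S2 they had 3.51, 8.35 and 8.80 FPKM (mean 6.88 ± 2.93, SD, n = 3). The S1 and S2 libraries overlapped, since the lowest S1 library was under the upper S2 libraries, and the S3_C libraries fell inside the range of S2. The order of the means was therefore S3_S, S1, S2 and S3_C, in which S1 and S2, and S2 and S3_C, did not differ beyond their spread.

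**Figure D1:**
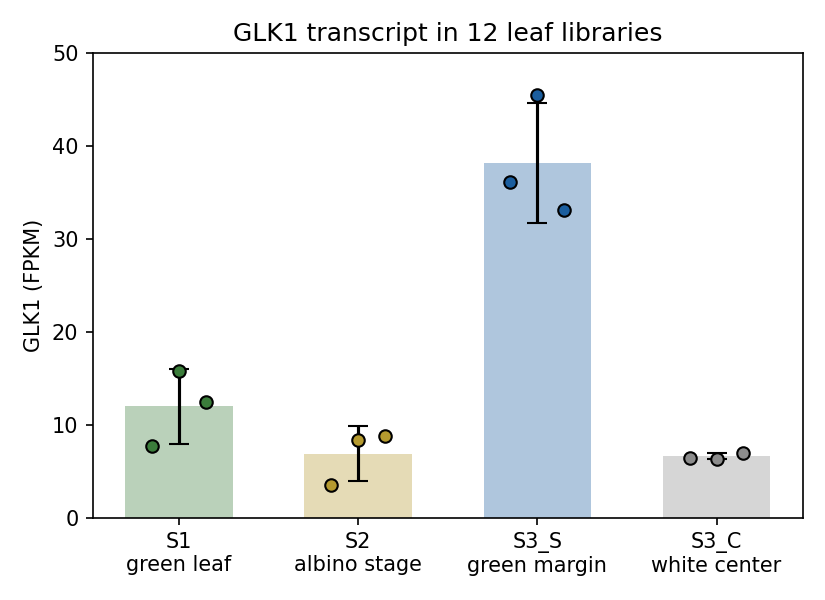
*GLK1* level (FPKM) in the 4 groups. Points are single libraries, bars are means and lines are ± 1 SD (n = 3). The S3_S libraries at 33.1 to 45.5 FPKM stand above all others, of which the highest is an S1 library at 15.7 FPKM.

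The place of *GLK1* among all rows of a library moved with these levels. In the S3_S libraries it ranked between 1694 and 2494 from the top and in the S3_C libraries between 12405 and 13380. The FPKM sums of the libraries were alike, from 429278 to 461587. The relative depth, read from the smallest steps of low values with the first S1 library at 1, ranged from 0.902 to 1.35, and this scale gives no read counts. Leaf pieces are mixtures, and fewer cells that make a transcript cannot be told apart from less transcript per cell.

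The comparison of both sectors asks which transcripts differ between green and white tissue of variegated leaves. The fit took the margin and center libraries as unpaired. On log2(FPKM + 1), a scale that understates changes of low values, *GLK1* rose in S3_S over S3_C by 2.36 (SE 0.15, 95% interval 1.98 to 2.73; limma adjusted p = 0.0127). The ratio of the mean FPKM was 5.80. A row was called when its p before adjustment was below 0.05 and its log2 fold change lay beyond 1 in either direction. Of the 42625 rows tested 7.88% were past this threshold, 2.67% as higher and 5.2% as lower in S3_S. In 6.35% of rows every S3_S library lay above every S3_C library. The exact two-sided permutation test gave 0.1, the smallest p it allows for 3 libraries against 3. The study picked *GLK1* for a follow-up from the genes that differed between these same libraries, so this test is not independent evidence. The difference lay between 2.23 and 2.45 with each library left out in turn.

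Among 1526 rows annotated to the regulation of transcription, the log2 fold change of *GLK1* between the sectors ranked 4 from the highest. It ranked 7 of 1522 in S3_S against S2 and 100 of 1526 in S3_S against S1.

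*GLK1* also rose in S3_S over S2 by 2.38 (SE 0.34, 95% interval 1.54 to 3.22; limma adjusted p = 0.136), where 10.4% of rows were past the threshold, 3.71% as higher and 6.71% as lower in S3_S. The adjusted p did not pass 0.05, and 0.00468% of rows did so there. Every S3_S library lay above every S2 library, as in 7.38% of rows. Over S1 the margin was higher by 1.63 (SE 0.28, 95% interval 0.95 to 2.31; limma adjusted p = 0.0251), past the threshold together with 19.2% of rows (12.5% as higher and 6.72% as lower in S3_S). Again no libraries overlapped, which held in this direction for 25.9% of rows. This last call was lost, at 0.80, in a linear model with a library-size covariate.

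The white center was compared with both earlier stages. S1 was above S3_C by 0.72 (SE 0.26, 95% interval 0.09 to 1.35; limma adjusted p = 0.0853), under the fold that the threshold asks for. All S1 libraries were above all S3_C libraries, as in 7.94% of rows, while 21.8% of rows were past the threshold, 4.31% as higher and 17.5% as lower in S1. With median-of-ratios scaling the difference was 1.39 and with quantile normalization 1.302, both past it. S3_C and S2 differed by 0.03 (SE 0.34, 95% interval −0.80 to 0.86; limma adjusted p = 0.977), an interval that leaves room for a difference of nearly 1 in either direction, and 2.09% of rows were past the threshold (1.41% as higher and 0.678% as lower in S3_C).

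From S1 to S2 the difference was −0.75 (SE 0.40, 95% interval −1.73 to 0.23; limma adjusted p = 0.335) and not past the threshold, as 9.06% of rows were (7.02% as higher and 2.04% as lower in S2). With median-of-ratios scaling it was −1.25 and with quantile normalization −1.16, both past it. The median row with a mean of at least 1 FPKM shifted by 0.45 in this comparison. It shifted by −0.60 in S1 against S3_C, −0.33 in S3_S against S3_C and −0.17 in S3_S against S2. The value of *GLK1* had the opposite sign in each of them. In S3_S against S1 (0.29) and S3_C against S2 (0.13) the median row shifted with the same sign as *GLK1*. With median-of-ratios scaling *GLK1* in S3_S against S1 was 1.33, and with quantile normalization 1.37. The 6 comparisons share groups, so they are not independent of each other.

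**Figure D2:**
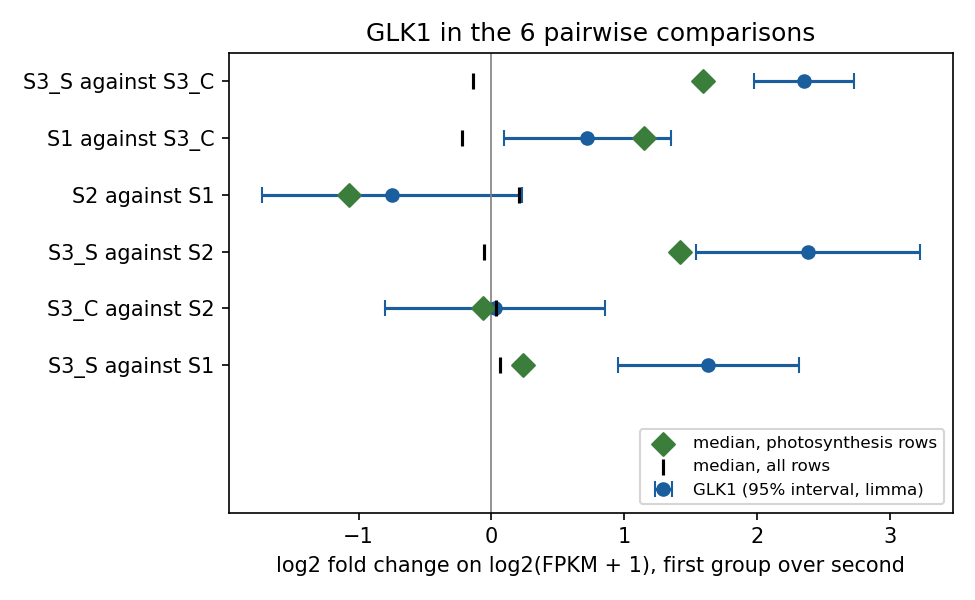
Log2 fold change on log2(FPKM + 1) in the 6 pairwise comparisons, first group over second. Circles with lines are *GLK1* with its 95% interval from limma, diamonds the median of the photosynthesis rows, and ticks the median of all rows tested. The *GLK1* intervals of S3_S against S3_C, S2 and S1 lie wholly above 0, with values of 2.36, 2.38 and 1.63.

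Rows annotated to photosynthesis (110 rows carrying that GO term) were then set beside *GLK1*. They hold antenna proteins, photosystem subunits, the small subunit of Rubisco and enzymes of chlorophyll synthesis. In S3_S against S3_C 61 of 108 tested rows rose and 2 fell, with a median log2 fold change of 1.59, against −0.14 over all rows tested. A linear model with a library-size covariate called 12 of them higher and 1 lower, with 1030 of all 42625 rows called. In the limma fit the shares over all rows were 2.67% higher and 5.2% lower. In S3_S against S2 53 of 108 rose and 2 fell (median 1.42, with 3.71% of all rows higher). By a limma adjusted p under 0.05 the count was 0 there. In S1 against S3_C, where *GLK1* was not past the threshold, 46 of 108 were higher and 2 lower (median 1.15, with 4.31% of all rows higher). In all, 106 photosynthesis rows were tested in S3_S against S3_C, S1 against S3_C and S3_S against S1. Of these, 60 were higher in S3_S than in S3_C, and 37 of the 60 were also higher in S1 than in S3_C. Both comparisons share the S3_C libraries, and the matching share over all rows was not computed, so nothing is read from this overlap.

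Between S3_S and S1, where *GLK1* was higher in the margin, 11 of 110 photosynthesis rows were higher and 11 lower (median 0.24). Of all rows 12.5% were higher and 6.72% lower there, so the share of photosynthesis rows called higher was near that of all rows. With median-of-ratios scaling 5 of 20 called rows were higher. The count rested on single libraries, since it was 36 (27 higher) without S1 replicate 1, 14 (5 higher) without S1 replicate 2, 11 (4 higher) without S1 replicate 3, and 13 without S3_S replicate 2 or without S3_S replicate 3. From S1 to S2 36 of 108 rows fell and 0 rose (median −1.07, with 2.04% of all rows lower). By a limma adjusted p under 0.05 the count was 0. By unadjusted p and fold in limma the number in either direction was 17 without S2 replicate 1, 22 without S1 replicate 3, 24 without S1 replicate 1 and 54 without S2 replicate 3. In S3_C against S2 9 of 106 fell and 0 rose (median −0.07, with 0.678% of all rows lower). By a limma adjusted p under 0.05 the count was 0, and the split by unadjusted p and fold rested on single libraries. Without S2 replicate 3, 6 rose and 7 fell, and without S3_C replicate 2, 0 rose and 5 fell.

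The sum of the photosynthesis rows made the same point library by library. In S1 it was 41669, 16239 and 18597 FPKM, and in S3_S 36119, 24632 and 28751 FPKM. In S2 it was 5921, 4746 and 12872 FPKM, and in S3_C 6150, 5451 and 6387 FPKM. The first S1 library thus had the highest photosynthesis sum and the lowest *GLK1* level of its group. Per FPKM of *GLK1* the sum was 5372, 1031 and 1501 in S1 but 1001, 542 and 870 in S3_S. It was 1689, 569 and 1463 in S2, and 952, 857 and 919 in S3_C. The ranges of S3_S and S3_C overlapped although the levels of both measures lay far apart, and those of S1 lay above those of S3_S.

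The 7 rows described as the small chain of Rubisco, the enzyme that fixes carbon dioxide, were singled out after their values were seen. Their sum was 21551, 7316 and 7991 FPKM in S1 and 13178, 5127 and 6026 FPKM in S3_S, so that both groups overlapped and the first S1 library was the highest. The sums of the antenna rows of KEGG (17 rows) did not overlap, with 8215, 3674 and 4072 FPKM in S1 and 11052, 9770 and 11080 FPKM in S3_S. Taken singly, 8 of the 17 rows had every S3_S library above every S1 library, beside 25.9% of all rows. Of rows with a mean of at least 1 FPKM, 15 of 16 antenna rows had their highest group mean in S3_S, the group in which *GLK1* was highest too, against 53 of 90 photosynthesis rows and 18.9% of all rows.

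**Figure D3:**
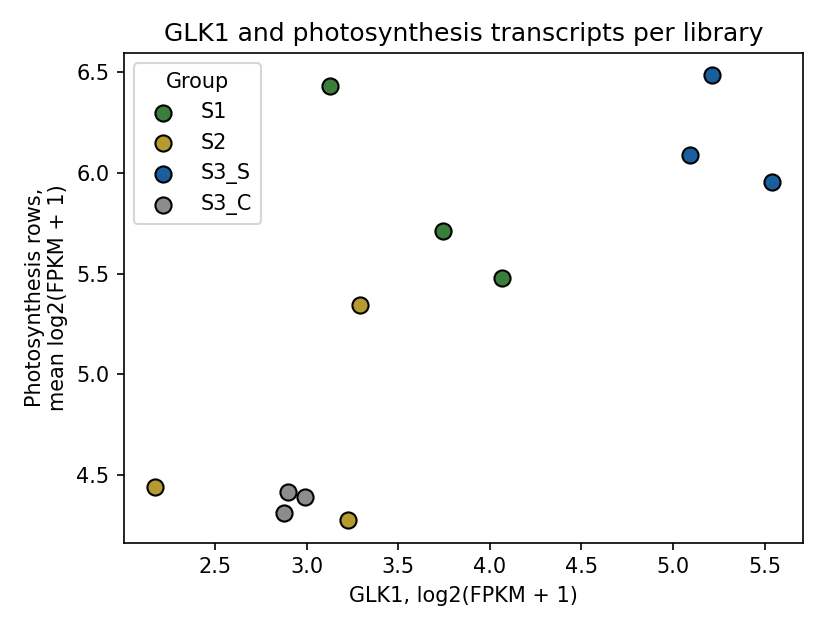
*GLK1* level, log2(FPKM + 1), against the mean log2(FPKM + 1) of the photosynthesis rows, 1 point per library, colored by group. The S3_S libraries are high on both axes and the S3_C libraries low, at 4.31 to 4.42 on the y axis. The S1 library at 6.43 stands away from the rest.

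Over the 12 libraries the photosynthesis rows followed *GLK1*, as a description without a test. Of 90 rows with a mean of at least 1 FPKM, 79 had a Pearson r above 0 and 60 one of at least 0.5 on log2(FPKM + 1), with a median of 0.643 (Spearman's rho 0.654). Over all 25073 such rows the median r was −0.18, and 6.22% reached 0.5. The points share 4 groups, and after the group means were taken off the median was −0.11 for the photosynthesis rows and 0.06 for all rows. The relation thus lay between the groups and not between the replicates of a group. It was 0.833 without S1, 0.591 without S2, 0.465 without S3_S and 0.585 without S3_C. Without the S3_S libraries farthest from the median of *GLK1*, replicates 1 and 2, it was 0.543.

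**Figure D4:**
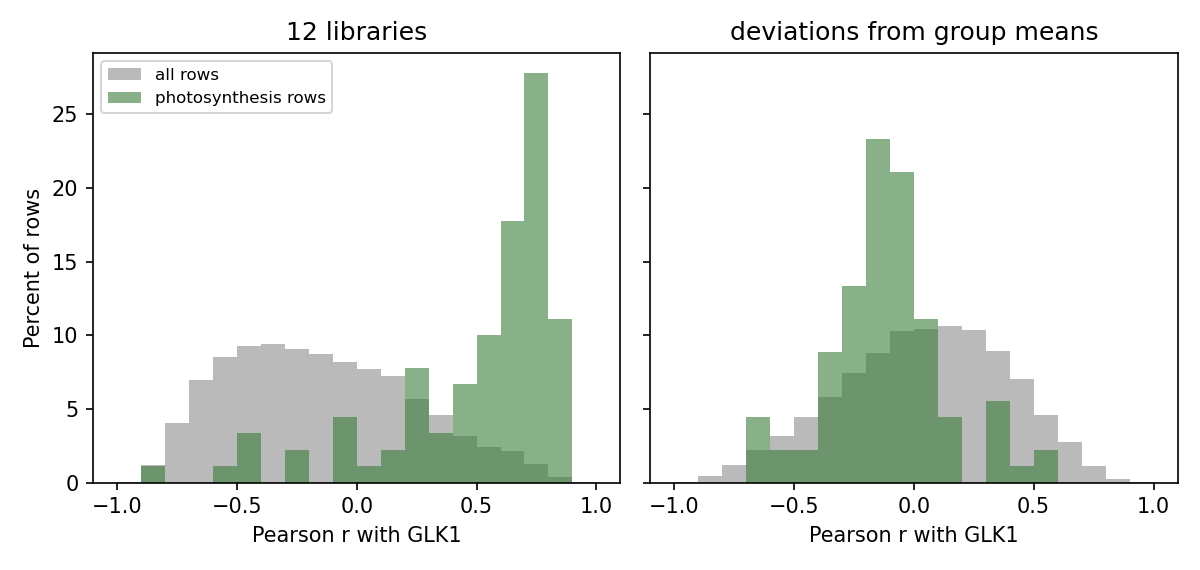
Pearson r with *GLK1* on log2(FPKM + 1) for rows with a mean of at least 1 FPKM, as the percent of rows per bin, for the photosynthesis rows (90) and all rows (25073). On the left, over 12 libraries, the photosynthesis rows pile up at high values (median 0.643). On the right, for deviations from the group means, their median is −0.11.

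The antenna had the highest median r of the KEGG lists. Its 16 rows had a median r of 0.781, the 33 rows of photosystems and electron transport in KEGG 0.642, and the 47 rows of porphyrin and chlorophyll metabolism 0.304. Between the sectors 15 of 17 antenna rows rose in S3_S and 0 fell, as did 27 and 0 of 36 photosystem rows and 9 and 0 of 52 porphyrin rows. Over all rows 2.67% were higher and 5.2% lower between the sectors. In S3_S against S1 3 antenna rows were higher and 0 lower, against 2 and 2 of the photosystem rows and 5 and 11 of the porphyrin rows. The 3 of 17 antenna rows stand beside the 12.5% of all rows that were higher there, and the lower porphyrin rows beside 6.72% lower. The differences between the lists were not tested.

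*LHCB6*, a minor antenna protein of photosystem II, had the highest r of the photosynthesis rows, 0.882. Its libraries had 9.82, 10.7 and 10.2 FPKM in S1 and 3.73, 2.59 and 29.0 FPKM in S2. They had 72.2, 70.9 and 81.5 FPKM in S3_S and only 5.58, 7.96 and 6.49 FPKM in S3_C. It rose in S3_S over S3_C by 3.31 (SE 0.16, limma adjusted p = 0.0061) and over S1 by 2.75 (SE 0.15, limma adjusted p = 0.0146). *LHCB6* was picked by its r over these same libraries, so its likeness to *GLK1* and these p-values are not independent evidence. A second row projected from the same *Arabidopsis* gene, *Bo8g105860*, was at 1.80 FPKM in the first S1 library and at 240 and 301 FPKM in the others. Reads of close copies can be split between such rows, so single antenna rows are uncertain.

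Other antenna rows near *GLK1* were *Bo4g039810*, a chlorophyll a-b binding protein (r = 0.878), and *Bo9g008350*, an LHCB2 by its KEGG entry (r = 0.873). *Bo9g008350* rose over S3_C by 3.88 and over S1 by 1.88 in S3_S. The row of *LHCB5*, another minor antenna protein, had r = 0.842 and also spans a gene described as a sodium transporter. *PSAN* of photosystem I (r = 0.830), *PSBQ* of the oxygen-evolving complex (r = 0.823), *Bo6g118780*, annotated as a geranylgeranyl reductase of chlorophyll synthesis (r = 0.813), and a row of *psbW* (r = 0.809) came next. The lowest was *Bo6g120660*, a phosphofructokinase (r = −0.821), which fell by 1.41 on the log2 scale in S3_S against S3_C. It is an enzyme of sugar metabolism and not of the thylakoid. *CHLI2* (r = −0.438), *CS26* (r = −0.403), *Bo3g081840* (r = −0.570), *Bo8g040670* (r = −0.416) and *Bo5g082740* (r = −0.259) were the others at the low end.

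Of 21 *Arabidopsis* antenna genes listed, 9 were matched, to 11 rows. Between the sectors 8 of 10 rows tested rose in S3_S, with a median of 2.37, beside 2.67% of all rows that rose. By a limma adjusted p under 0.05 the number was 3, beside 600 of all 42625 rows. *LHCA4*, an antenna protein of photosystem I, went from 448 ± 51.1 FPKM in S3_C to 1913 ± 148 FPKM in S3_S (SD, n = 3). *LHCB4.1* of photosystem II went from 294 ± 41.9 to 1274 ± 26.0 FPKM. The log2 fold change was 2.095 for *LHCA4* (SE 0.755, limma adjusted p = 0.157) and 2.12 for *LHCB4.1* (SE 0.53, limma adjusted p = 0.0791). *LHCA6* had its highest mean in S1, with 113 ± 75.7 FPKM, and 55.1 ± 42.5 FPKM in S3_S, which sets it apart from the order of *GLK1*. *LHCB3* and a second *LHCB4.2* row were near 0 FPKM in every library.

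Chlorophyll synthesis was the other role for which GLK proteins are known. Of 17 listed genes 8 were matched, and 2 of 8 rows rose in S3_S over S3_C, beside 2.67% of all rows. *GUN5*, the H subunit of the chelatase that puts magnesium into protoporphyrin, rose by 2.03 (limma adjusted p = 0.0577), from 24.01, 13.98 and 19.97 FPKM to 148, 66.2 and 52.4 FPKM. *Bo8g002560*, described as protochlorophyllide oxidoreductase C, rose by 1.52 (adjusted p = 0.0394). The D subunit *ALB1* differed by 0.87 and the I subunits *CHLI1* and *CHLI2* by 0.53 and −1.31, none of them past the threshold. *PORB* differed by 0.93 and *ATG4*, described as a prenyltransferase and projected from chlorophyll synthase, by 0.86, neither past it, and *PORA* was near 0 FPKM throughout. In S3_S against S1 0 of 8 rose and *CHLI2* fell by 1.03, beside 12.5% of all rows higher and 6.72% lower.

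Genes that act beside GLK in plastid signalling were few in the table. Of 9 listed genes 4 were matched, and *SIGA*, a sigma factor that guides the plastid RNA polymerase, rose with *GLK1* in S3_S over S3_C (1.58, limma adjusted p = 0.0494) and over S1 (1.38, adjusted p = 0.0678). Its S3_S libraries had 106, 62.7 and 71.0 FPKM, and its S3_C libraries 34.0, 18.3 and 26.4 FPKM. *SIGC* and *SIGF* differed by 0.10 and 0.59 between the sectors, not past the threshold.

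Known regulators of greening were listed too. Of 10 listed activators 3 were matched, and 0 of 3 were past the threshold between the sectors, beside 7.88% of all rows. In S3_S against S1 *CRY1*, the blue light receptor, rose by 2.15 and *Bo6g086240*, described as the B-box protein 21, by 2.69. The HY5-like *Bo3g069000* fell by 2.67 on the log2 scale. Of all rows 12.5% were called higher there and 6.72% lower. Of 10 listed repressors and GLK partners 4 were matched, and again 0 of 4 were past the threshold between the sectors. Beside the 7.88% of all rows, lists this short cannot show whether such regulators changed less than other rows. *PIL5*, a phytochrome-interacting factor, averaged 9.45 ± 1.12 FPKM in the margin against 15.3 ± 4.21 FPKM in the center (SD, n = 3), and *DET1*, a repressor of light responses, 15.5 ± 1.59 and 24.9 ± 1.47 FPKM. In S3_S against S1 1 of these 4 rows was called higher and 0 lower, beside 12.5% of all rows higher. That row was *PIL5*, which rose by 1.14 (limma adjusted p = 0.0289). *Bo4g045420*, described as the ubiquitin ligase COP1, stayed between 11.2 and 14.2 FPKM in the group means. *BZR1* of brassinosteroid signalling had group means under 1 FPKM.

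**Figure D5:**
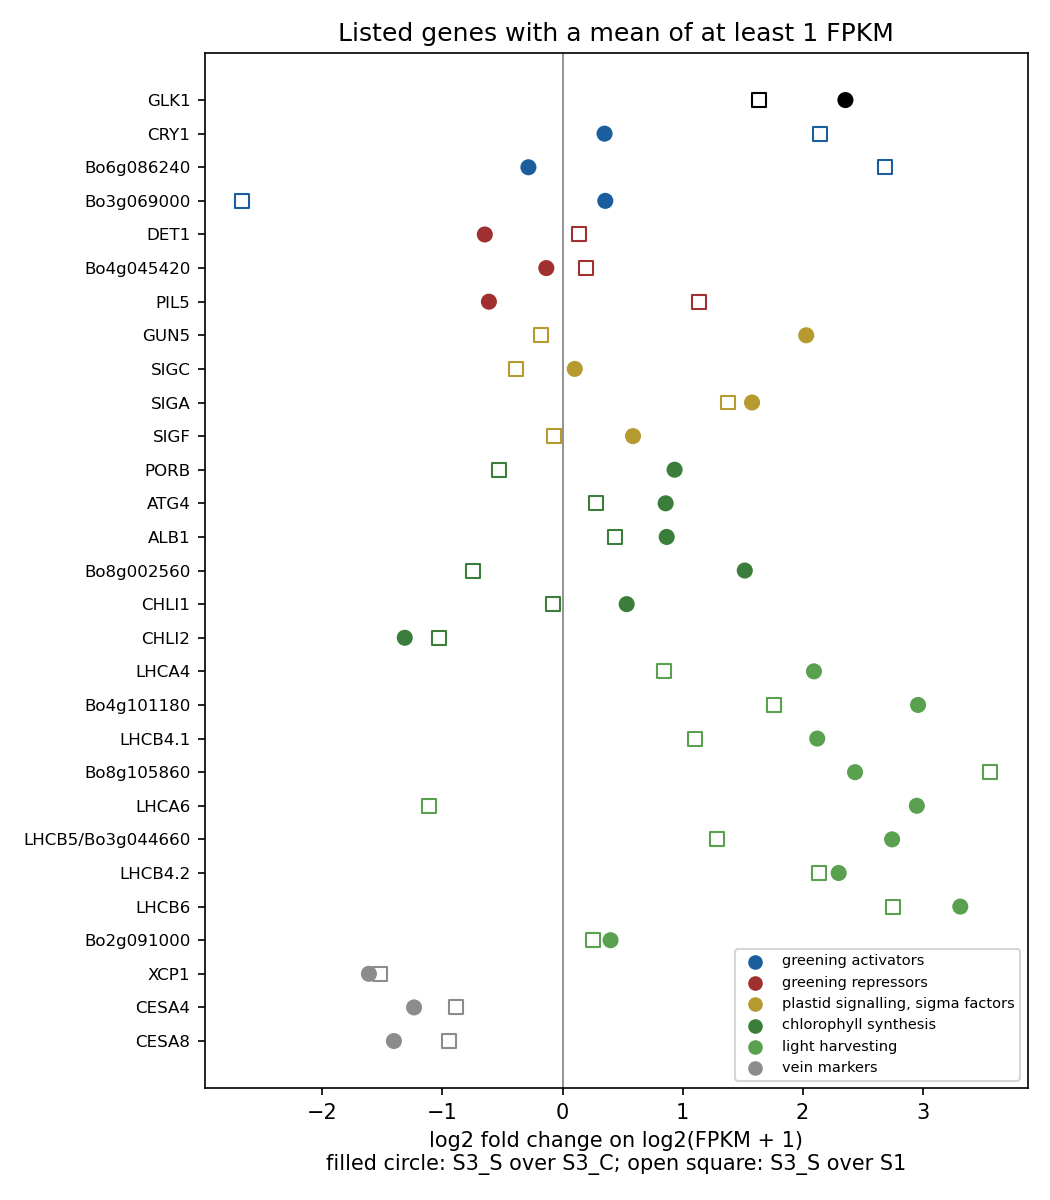
Log2 fold change on log2(FPKM + 1) of *GLK1* and of listed genes whose mean reached 1 FPKM, by role. Filled circles are S3_S over S3_C and open squares S3_S over S1. *GLK1* at 2.36 and 1.63 and *LHCB6* at 3.31 and 2.75 are high in both, *GUN5* at 2.03 and −0.18 in the first, and the vein markers lie below 0.

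Of all 25073 rows with a mean of at least 1 FPKM, *Bo8g102300* was most like *GLK1*, with r = 0.945. It is also annotated to DNA binding and the regulation of transcription, and to zinc ion binding, and the table gives it no name. It had 19.96, 11.22 and 15.04 FPKM in S1, 3.03, 7.72 and 14.2 FPKM in S2, 63.7, 91.6 and 77.4 FPKM in the margin and 6.76, 8.34 and 7.28 FPKM in the center. Its order of groups was close to that of *GLK1*, with S3_S far above the rest, but it was picked by its r over these same libraries. *MSTRG.18337*, an assembled row without a reference gene (r = 0.937), the aquaporin *PIP1A* (r = 0.901), the thiamin synthesis gene *TH1* (r = 0.901) and *Bo5g012200* (r = 0.8997) followed, then *LHCB6*, *Bo4g039810* and *MSTRG.36444* (r = 0.874). *TH1* reached this with a difference of 0.44 between the sectors that was not past the threshold. The most opposed rows were *Bo4g191360* (r = −0.945), *Bo3g009610* (r = −0.939), *Bo3g172310* (r = −0.931) and *APK3*, an enzyme of sulfate assimilation (r = −0.929).

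Markers of vein tissue were read beside *GLK1*. Of 10 listed vein markers 4 were matched, the cellulose synthases *CESA8* and *CESA4*, *IRX9* of xylan synthesis and the xylem peptidase *XCP1*, and none was at 0 in all libraries. Their summed level was 2.22 to 3.81 FPKM in the margin, 10.5 to 15.5 FPKM in the center, 7.56 to 13.1 FPKM in S1 and 7.51 to 12.8 FPKM in S2. Although S1 and S2 were taken as leaves freed of veins, both thus overlapped the center and lay above the margin. Between the sectors 3 of 4 fell in S3_S, beside 5.2% of all rows. All 4 had no overlap, as every S3_S library was below every S3_C library in 24.4% of rows. Their part in the difference of *GLK1* was not tested. Of the 5 mesophyll markers listed 0 were matched, so the share of mesophyll in the leaf pieces was not checked. Of the listed epidermal markers only *TMM* was matched, which was above 0 in a single S3_S library.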

How the data were processed

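The values are FPKM per gene in 12 libraries of 4 groups, as deposited by the authors. Per the submitters' processing notes and the study's methods, the authors aligned reads with HISAT2 2.0 against Ensembl Plants release 38 of *B. oleracea* (up to 2 mismatches and 20 alignments per read), assembled and merged transcripts with StringTie 1.3.0, and calculated FPKM. Reads shared by close copies can therefore be split, and how transcripts of a row were combined is not stated. Groups were taken from the sample labels. For each pair of groups, every row with a value over 0 in any of its 6 libraries was tested on log2(FPKM + 1). The test was limma 3.58.1 (lmFit, eBayes with trend) in R 4.3.3, after a trial on simulated data. Calls used the study's threshold of p and fold change, and Benjamini-Hochberg adjustment was over all rows tested. The study itself used Ballgown and not limma, so only the threshold was shared. In S3_S against S3_C the limma fit called 3358 rows, 1140 of them higher in S3_S. A linear model with a library-size covariate, as in Ballgown, called 1030 rows, 595 of them higher. Python 3.11.15 with pandas 2.3.3, scipy 1.17.1 and numpy 2.4.6 served for summaries.

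The gene, the lists and the tests were chosen with earlier results of these data known. Named rows are *GLK1*, the members of each list with the highest mean or the largest and smallest change between the sectors, and the rows with the highest and lowest r with *GLK1*. Lists were matched by the *Arabidopsis* gene that the table projects from or, where the description names none, by the exact gene symbol. A hit of the symbol *KAT1* was rejected because its description names another *Arabidopsis* gene.

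Alternatives were a pseudocount of 0.1, a replicate block, leaving out each library, quantile normalization, median-of-ratios scaling, a filter on rows with a mean under 1 FPKM, 1 fit over all 12 libraries, and a linear model with a library-size covariate as in Ballgown. Libraries of the same number deviated together in S3_C against S2 (correlations of 0.206 to 0.474 over 43059 rows), a pairing seen only in the data. In the other comparisons not every pair reached 0.1. S3_S against S3_C came close, with 0.0968 to 0.421 for the same number and −0.433 to 0.210 for different numbers, so a pairing of the sectors stays possible. The main fit was unpaired in every comparison, and the replicate block was only an alternative. No sequence of *Bo7g003410* was used here.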

Additional observations from a re-analysis of the deposited data

How the results depend on the processing

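Of 13 alternatives per comparison, the call of *GLK1* held in all for S3_S against S3_C and S3_S against S2. The replicate block left every *GLK1* fold change as it was and changed no call, with limma adjusted p of 0.0447 for S3_S against S3_C and 0.0994 for S3_S against S1, and gave 64 photosynthesis rows past the threshold between the sectors. With median-of-ratios scaling and quantile normalization *GLK1* was past the threshold in S1 against S3_C (1.39 and 1.302) and S2 against S1 (−1.25 and −1.16), and changed sign in S3_C against S2 (−0.13 and −0.14), as it did without S2 replicate 1 (−0.34) or S3_C replicate 3 (−0.0070). With a library-size covariate the call of *GLK1* in S3_S against S1 was lost (0.80), and in S3_S against S3_C its adjusted p was 0.908, against 0.00296 to 0.0691 in the limma alternatives. In that model the photosynthesis rows past the threshold, without regard to direction, were 13 instead of 63 in S3_S against S3_C, 0 instead of 48 in S1 against S3_C, 1 instead of 36 in S2 against S1, 32 instead of 55 in S3_S against S2 and 3 instead of 22 in S3_S against S1. The covariate model had 0 rows with an adjusted p under 0.05 in each of these 5 comparisons. With median-of-ratios scaling the number in S2 against S1 was 61. The median r of −0.11 within groups has been given. The causes were not tested.

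With each library left out, *GLK1* ranged from 2.23 to 2.45 in S3_S against S3_C, 0.51 to 0.98 in S1 against S3_C, −1.01 to −0.39 in S2 against S1, 2.02 to 2.58 in S3_S against S2, −0.34 to 0.22 in S3_C against S2 and 1.38 to 1.84 in S3_S against S1. Photosynthesis rows past the threshold ranged, in the same order, from 59 to 66, 40 to 50, 17 to 54, 37 to 59, 5 to 13 (6 higher and 7 lower at the upper end) and 11 to 36, and the median r from 0.582 to 0.792. Scaling also moved the split of all called rows. In S3_S against S3_C 33.9% of calls were higher in the first group, 67.8% with median-of-ratios scaling and 60.4% with quantile normalization. In S1 against S3_C these were 19.7%, 58.0% and 51.1%, in S2 against S1 77.5%, 35.7% and 39.8%, in S3_S against S2 35.6%, 57.9% and 52.6%, in S3_C against S2 67.5%, 45.8% and 53.2%, and in S3_S against S1 65.0%, 47.9% and 49.1%. FPKM keep no counts, so the error of low values cannot be given.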
